A study of Mus musculus with 17 samples.

Results

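The genes described here are the 55 protein-coding mouse genes, of 47729 counted, that make, receive or modulate Wnt signals outside the cell. They were taken from the GENCODE M21 annotation by a rule on gene names, which uses no measured values. The rule took the 19 Wnt ligands, the 10 Frizzled receptors, the 4 R-spondins, the 3 Lgr receptors, the 4 Dkk genes and the 4 Sfrp genes. Frzb, Wif1, Lrp5, Lrp6, Ror1, Ror2, Ryk, Porcn, Wls, Kremen1 and Kremen2 completed the set.

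Polyadenylated RNA of mouse embryonic stem cells of the lines R1 and CGR8 was sequenced and counted per gene. All cells grew without serum in N2B27 with the cytokine LIF. LFAI contained IWP2 at 2 uM, human Activin A at 20 ng/ml and FGF2 at 12 ng/ml. Its cells were harvested at 35 h or at 4 days. LIM contained IWP2 (2 uM) and the MEK inhibitor PD325901 (0.1 uM). The starting medium L2i contained PD325901 (0.1 uM) and the GSK3 inhibitor CHIR99021 (3 uM), and no IWP2. Each of these 4 groups had 1 R1 and 1 CGR8 library (n = 2). The 35 h cells had spent 9 (R1) and 7 (CGR8) passages in 2i before LFAI, and the 4 day cells 3 and 9. LIM cells had spent 5 and 5 passages in 2i and then 4 and 6 in LIM, and L2i cells 10 and 8 passages in 2i. A separate series of 9 R1 libraries followed the switch from L2i (day 0) into LIM or LFAI on days 1 to 4, with 1 library per point. Its plates were coated with gelatin and fetal calf serum and those of the other libraries with gelatin and a basement membrane extract, and its sequencing protocol version also differed. Both lines are established and the media had 1 library per line, so p-values measure the spread between these libraries. Every medium compared with L2i lacked CHIR99021 and held IWP2, and LFAI also lacked PD325901 and held FGF2 and Activin A, so the agents cannot be told apart in these comparisons.

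Wnt proteins are lipid-modified in the producing cell by Porcupine (Porcn), the enzyme that IWP2 inhibits, and are carried to the surface by Wntless (Wls). Outside the cell they bind Frizzled receptors with the co-receptors Lrp5 or Lrp6 and stabilise beta-catenin, or act through Ror and Ryk receptors on cell shape and movement. CHIR99021 stabilises beta-catenin downstream of the receptors, without any ligand, and in mouse embryonic stem cells beta-catenin activity is known to favour self-renewal in the naive state.

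The 8 libraries of both lines held 15135012 to 22593805 gene counts and the 9 time course libraries 12889029 to 13667302. The embryonic stem cell markers (Pou5f1, Sox2, Zfp42, Nanog, Sall4 and Utf1) were detected in all 8, and their CPM (counts scaled to library size with TMM factors) summed to between 2681 and 4602. Pou5f1 was highest in each library, and the others moved apart. At 4 days of LFAI, Zfp42 was at 12.5 (R1) and 10.6 (CGR8) CPM, against 885 and 696 CPM in L2i. Nanog fell from 1169 and 971 to 27.0 and 40.1 CPM, and Sox2 from 304 and 322 to 92.3 and 81.9 CPM. Sall4 also fell, and Utf1 rose from 123 and 48.6 to 528 and 444 CPM. Pou5f1 was at 1810 and 1926 CPM, against 1823 and 1378 CPM in L2i. Markers of other cell types moved with the media. The sum over 8 fibroblast or feeder markers was 10.4 and 11.0 CPM in LFAI at 35 h, 43.5 and 36.7 CPM at 4 days and 19.4 and 29.5 CPM in LIM, against 4.09 and 3.92 CPM in L2i (R1, then CGR8, here and throughout). Between 0 and 4 of these 8 markers had no count in a given library, as had 0 to 2 of the markers in each list that follows. The 5 neural markers, mostly Nes, summed to 50.6 and 42.9 CPM at 35 h, 579.8 and 367 CPM at 4 days and 193 and 126 CPM in LIM, against 49.2 and 33.3 CPM in L2i. The 8 trophoblast markers summed to 22.1 and 27.5 CPM at 35 h, 364 and 122 CPM at 4 days and 161 and 116 CPM in LIM, against 122.5 and 114 CPM in L2i. The neural and trophoblast sums hide markers that moved apart. At 4 days Krt8 (204 and 50.8 CPM) and Krt18 (155.5 and 68.0 CPM) were above L2i (8.60 and 5.18, 1.79 and 1.13 CPM). Cdx2, Gata3 and Tfap2c were below it, with Tfap2c at 1.20 and 0.523 against 97.7 and 99.9 CPM. Of the neural markers, Sox1 and Pax6 were also lower, with Pax6 at 1.51 and 0.588 against 5.01 and 3.98 CPM. In LIM both were above L2i, with Pax6 at 57.7 and 25.9 CPM and Sox1 at 8.20 and 3.33 against 0.735 and 0.930 CPM. Primitive endoderm markers, mostly Sparc, summed to 128 to 443 CPM and primitive streak markers to 4.94 to 19.0 CPM over the 8 libraries. The part that such cells have in the results below was not tested.

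In the time course, the library labelled LFAI day 1 went against its label. Over 15682 genes its log2 CPM correlated at 0.9952 with LIM day 1, at 0.9952 with LIM day 2 and at 0.9570 with LFAI day 2. From both LIM day 1 and LIM day 2, 0.23% of genes differed more than 2-fold, against 11.8% from LFAI day 2. On these measures it was thus as close to LIM day 2 as to LIM day 1. A chi-square of the counts per gene was 7.56 against LIM day 2 and 25.6 against LIM day 1, so on that measure it was closer to LIM day 2. Between LIM day 1 and LIM day 2 the chi-square was 26.8. Dusp6, a phosphatase induced by ERK signalling, was at 9.22 CPM in it, against 9.7 CPM in LIM day 1 and 77.4 CPM in LFAI day 2. Spry4, a feedback inhibitor of the same pathway, was at 2.85 CPM in it, against 2.17 CPM in LIM day 1 and 84.8 CPM in LFAI day 2. Both genes were picked after their values were seen, and results for LFAI below are given from day 2 on, with that library named wherever it appears.

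Of the 55 genes, 40 passed the filter on low counts in the libraries of both lines and were tested with edgeR. Of these, 33 were called (adjusted p under 0.05 over all 15525 tested genes) in at least 1 of 5 comparisons. The other 15 (Wnt2, Wnt2b, Wnt3a, Wnt7a, Wnt8b, Wnt9b, Wnt10a, Rspo2, Rspo3, Rspo4, Lgr5, Dkk1, Dkk2, Dkk4 and Wif1) never exceeded 1.66 CPM or 36 counts in any of the 8 libraries, and Dkk4 had no count. A gene could pass the filter through the group where it was high alone, so the counts below describe the tested genes and not the whole set. Comparisons against L2i share its 2 libraries. The share of all 15525 tested genes called in at least 1 of the 5 comparisons was not computed. It was at least 44.8%, the share called for LFAI at 4 days against L2i alone. The 33 of 40 thus cannot be read as a trait of these genes.

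In LFAI at 35 h, 5 of the 40 were called higher and 7 lower than in L2i, where 7.35% and 7.16% of all tested genes were called in those directions. At 4 days, 15 were called higher and 8 lower than in L2i, against 21.5% and 23.3% of all tested genes (44.8% in either direction). In LIM, 16 were called higher and 4 lower than in L2i, against 11.3% and 7.81%. At 4 days of LFAI, 7 were called higher and 12 lower than in LIM, against 12.3% and 17.2%, and 14 were called higher and 7 lower than at 35 h, against 17.7% and 19% of all tested genes (36.8% in either direction). The median log2 fold over the 40 was -0.0066 at 35 h, 0.38 at 4 days and 1.02 in LIM, each over L2i, while the median over all tested genes lay between -0.0012 and 0.0055 in these comparisons. These medians cannot rank the media, since genes such as Wnt1 and Wnt10b passed the filter through LIM alone. The 12 tested ligands had medians of 0 at 35 h, 0 at 4 days and 3.29 in LIM. The medians of 0 are those of ligands without a count in either group (Wnt4 and Wnt10b at 35 h, Wnt1 and Wnt10b at 4 days). They thus do not show a lack of change, and the LIM median includes ligands that passed the filter through LIM alone. The 15 receptors and co-receptors, all of them tested, had medians of -0.15, 0.63 and 0.14. In bulk RNA, fewer cells expressing a gene and less RNA per cell cannot be told apart. Of 95 calls over the 5 comparisons, 55 stayed past the threshold without any 1 of the 8 libraries, and the 40 lost without at least 1 library are named with their values beside each gene.

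**Figure D1:**
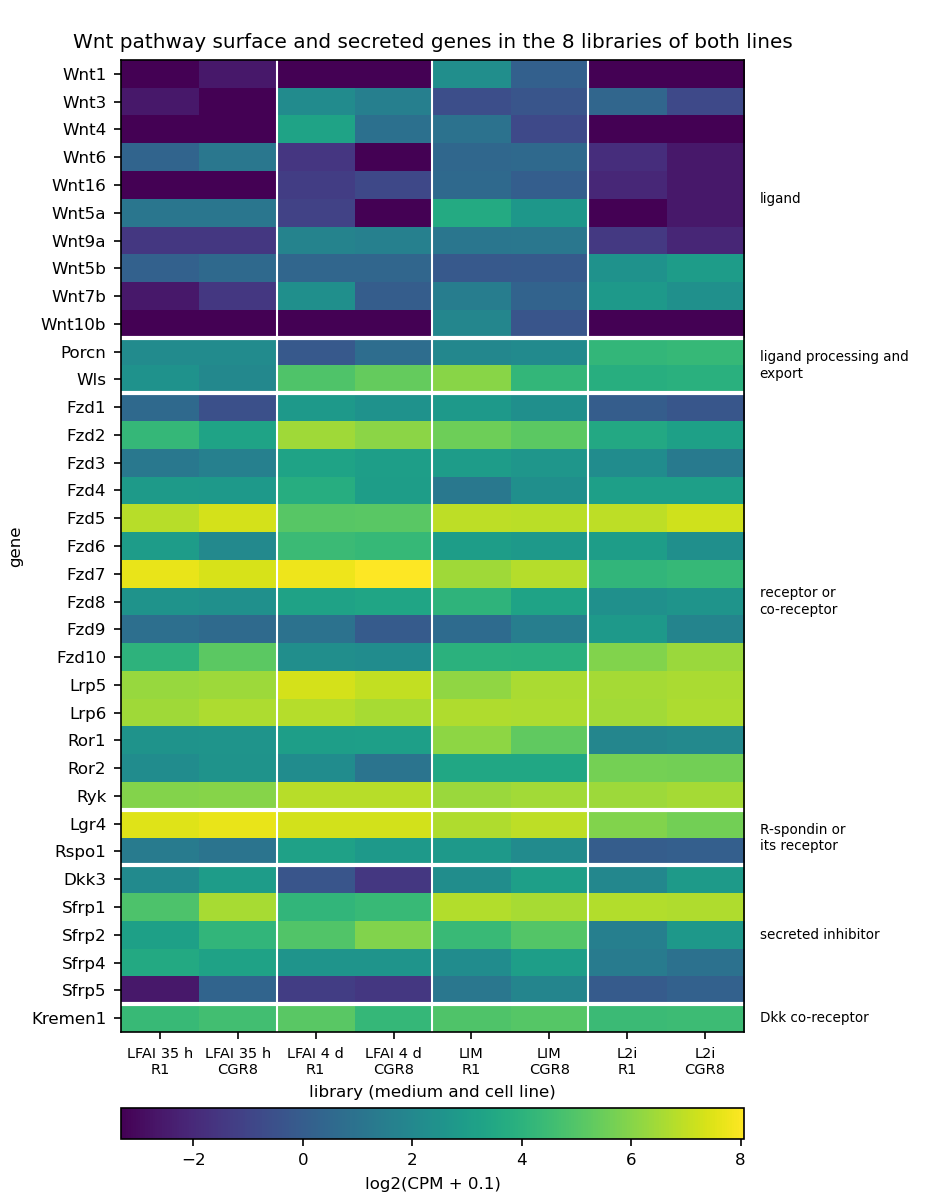
Level of the 35 genes that were called in at least 1 comparison or reached a mean of 10 CPM in a group, as log2(CPM + 0.1), in the 8 libraries of both lines (columns, by medium and line) and grouped by role (rows). Fzd7 and Lgr4 are brighter in the LFAI columns than in L2i, Fzd10 and Ror2 are darker in them, and Wnt1, Wnt10b, Wnt5a and Ror1 are brightest in LIM.

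**Figure D2:**
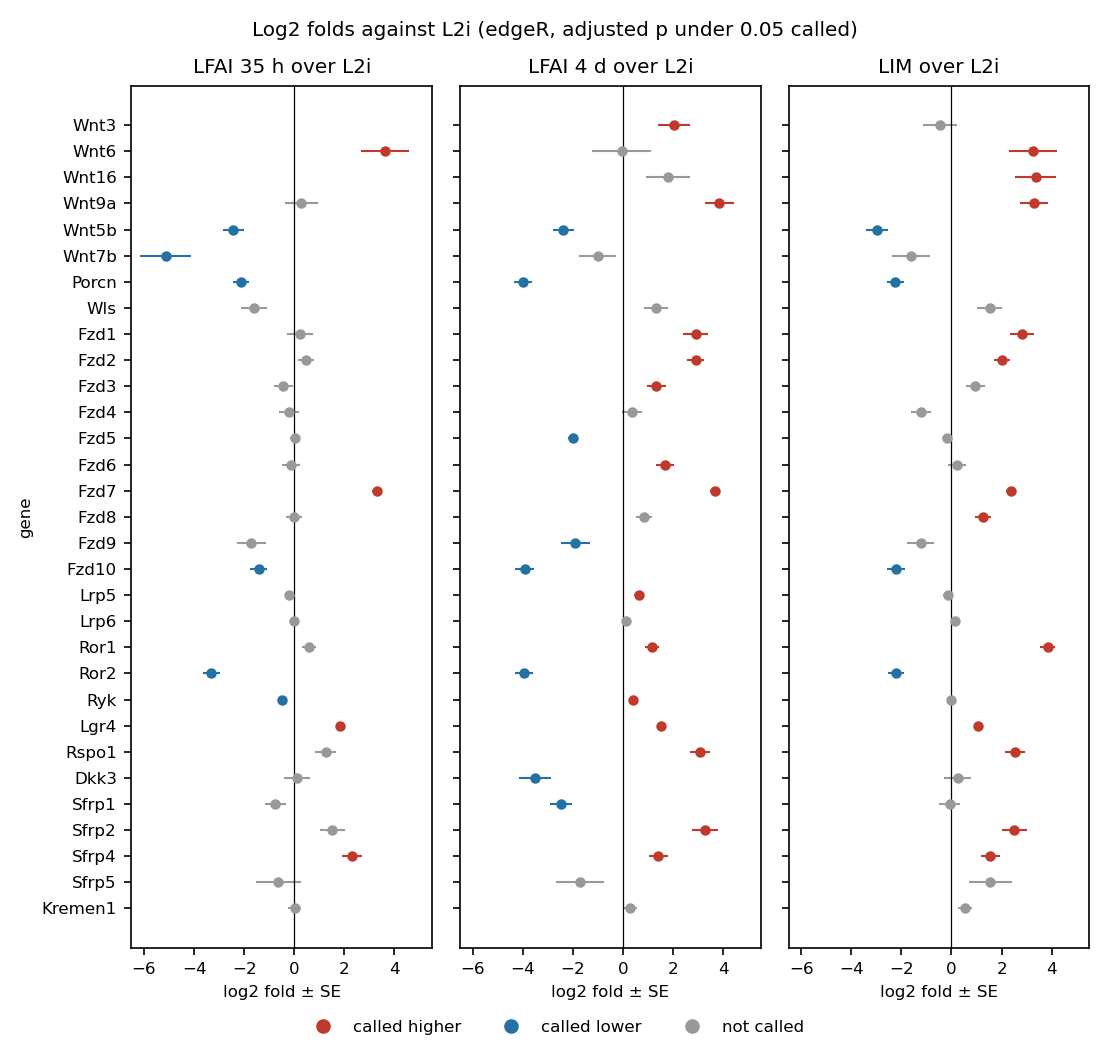
Log2 fold over L2i with its SE (derived from the F statistic of the edgeR test) for LFAI at 35 h, LFAI at 4 days and LIM (n = 2 libraries per group). Genes with 3 or fewer counts in both libraries of a group together are left out of that panel (Wnt1, Wnt4, Wnt5a and Wnt10b in every panel). Porcn, Ror2, Fzd10 and Wnt5b lie left of 0 and Fzd7, Lgr4 and Sfrp4 right of 0 in all 3 panels.

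The upstream sequences of 3 of the genes called against L2i in every medium are shown as examples. Fzd10 and Wnt5b were also called in every medium, and their sequences are not shown. For Porcn and Sfrp4, called in every medium as well, no promoter was used. The sequences shown are the 250 bases before the RefSeq transcription start (GRCm38.p6), 5′ to 3′ on the gene's strand, with CpG dinucleotides in capitals. Fzd7 (chr1:59481897-59482146, plus strand) holds 17 CpGs and 65.2% G or C. Lgr4 (chr2:109917397-109917646, plus strand) holds 10 CpGs and 55.6% G or C. Ror2 (chr13:53286125-53286374, minus strand), which fell where the other two rose, holds 24 CpGs and 73.2% G or C.
Fzd7: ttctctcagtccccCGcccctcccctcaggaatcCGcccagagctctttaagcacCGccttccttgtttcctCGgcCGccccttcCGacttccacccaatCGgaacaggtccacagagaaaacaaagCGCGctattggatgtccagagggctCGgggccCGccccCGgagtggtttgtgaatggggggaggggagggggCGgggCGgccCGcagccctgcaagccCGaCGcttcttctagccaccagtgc
Lgr4: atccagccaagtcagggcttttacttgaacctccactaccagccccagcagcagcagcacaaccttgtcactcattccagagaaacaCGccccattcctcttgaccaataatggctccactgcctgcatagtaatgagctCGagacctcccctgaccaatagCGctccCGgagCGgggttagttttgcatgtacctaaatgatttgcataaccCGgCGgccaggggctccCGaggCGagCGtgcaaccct
Ror2: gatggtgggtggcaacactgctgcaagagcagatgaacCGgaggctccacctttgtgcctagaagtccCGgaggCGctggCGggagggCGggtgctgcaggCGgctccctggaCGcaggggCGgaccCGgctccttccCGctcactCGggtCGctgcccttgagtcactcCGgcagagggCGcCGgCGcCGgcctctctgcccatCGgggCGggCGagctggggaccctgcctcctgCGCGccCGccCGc
None of the 3 overlaps an annotated exon.

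Binding sites of the TCF and LEF factors, which carry beta-catenin to DNA, share a core of CTTTGAT or CTTTGAA. This core was searched on both strands from 250 bases before to 50 after each RefSeq start. It was present in 3 of 39 promoters of 36 of the genes (7.69%), and in 2842 of the 32851 promoters in the table (8.65%), so the share was close to that of all promoters. The match at Wnt5b lies in the window of 1 of its 3 starts (chr6:119449440-119449468, minus strand). That at Wnt11 also lies in the window of only 1 of its starts (chr7:98835050-98835078, plus strand). The match at Dkk1 lies at chr19:30549596-30549624 (minus strand). The core is in capitals below, and at Wnt11 it reads on the other strand.
Wnt5b: agtaagtctctCTTTGATctgctccctgt
Wnt11: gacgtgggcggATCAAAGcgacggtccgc
Dkk1: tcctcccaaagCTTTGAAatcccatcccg
A match is a description of the letters and not a bound site.

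In the libraries of both lines, Porcn mRNA was lower in each of the 3 groups with IWP2 than in L2i. Porcn (X chromosome, 8193848 to 8206525, GRCm38) was at 4.37 and 4.35 CPM in LFAI at 35 h, 0.818 and 1.57 CPM at 4 days and 3.76 and 4.28 CPM in LIM, against 18.5 and 19.5 CPM in L2i. All 6 libraries with IWP2 lay below both L2i libraries, and the lines were close to each other in each medium. Against L2i it fell 4.35-fold at 35 h (log2 -2.12 ± 0.33, SE, edgeR adjusted p = 0.0041), 15.9-fold at 4 days (log2 -3.99 ± 0.37, adjusted p = 6.74e-05) and 4.72-fold in LIM (log2 -2.24 ± 0.33, adjusted p = 0.0026). At 4 days it was also 3.65-fold lower than at 35 h (log2 -1.87 ± 0.36, adjusted p = 0.0043) and 3.36-fold lower than in LIM (log2 -1.75 ± 0.36, adjusted p = 0.0080). These calls stayed without any 1 library.

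Wls did not follow Porcn. It was at 5.55 and 3.83 CPM at 35 h, 30.1 and 41.6 CPM at 4 days and 64.8 and 18.5 CPM in LIM, against 13.9 and 15.0 CPM in L2i. The 35 h libraries were below L2i and the 4 day and LIM libraries above it, with the LIM libraries far apart. At 4 days Wls was 7.64-fold higher than at 35 h (log2 2.93 ± 0.53, edgeR adjusted p = 0.0032), and this call stayed without any 1 library. Against L2i no call was made, at log2 -1.62 ± 0.52 (adjusted p = 0.071) at 35 h, 1.31 ± 0.49 (adjusted p = 0.055) at 4 days and 1.53 ± 0.49 (adjusted p = 0.060) in LIM. With the cell line as a block it was called lower at 35 h (log2 -1.66, adjusted p = 0.043) and higher at 4 days (log2 1.34, adjusted p = 0.032). The DESeq2 Wald test and the fit without a filter on low counts also called those differences and the LIM one (Wald log2 1.52, adjusted p = 0.0066).

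**Figure D3:**
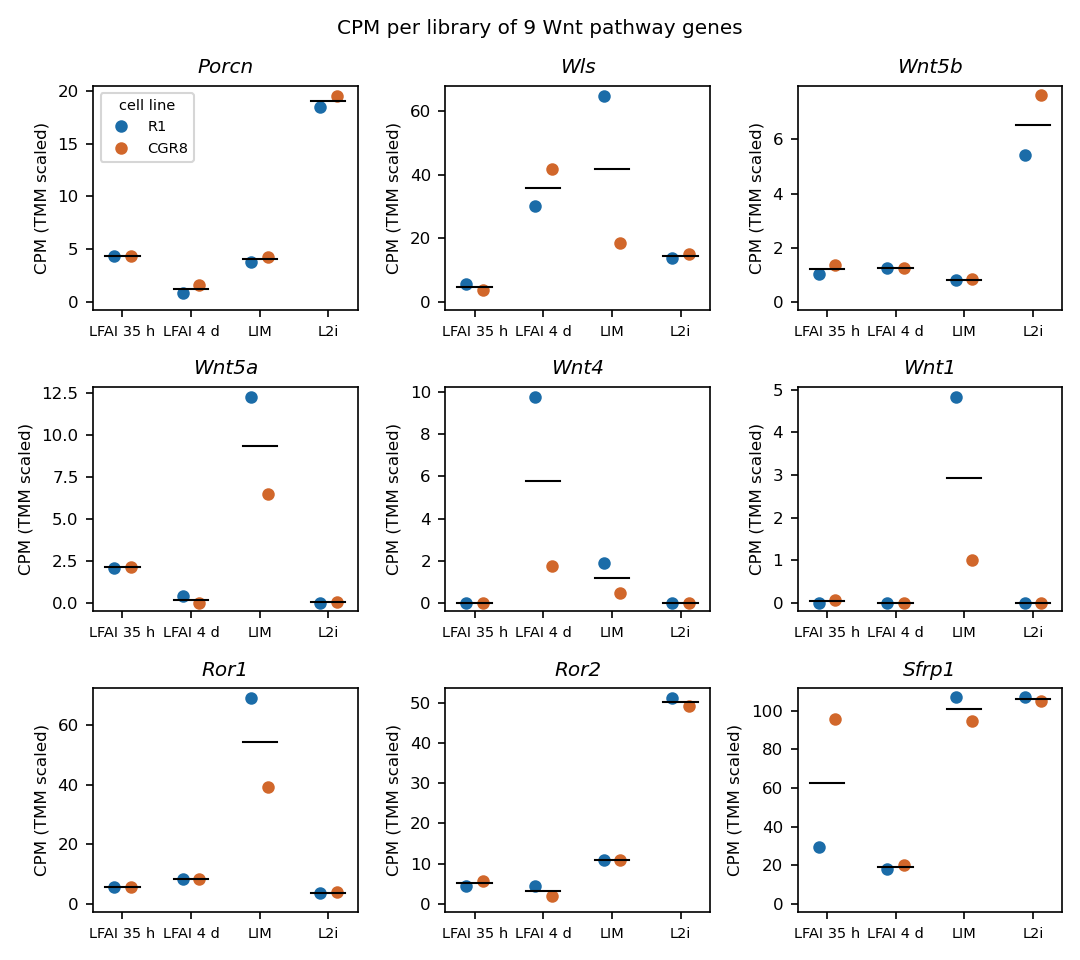
CPM of 9 genes in each library of both lines (blue R1, orange CGR8, line at the mean of both), by medium. Porcn, Wnt5b and Ror2 are highest in both L2i libraries, Ror1, Wnt5a and Wnt1 in both LIM libraries, and the LIM libraries of Wls and the 35 h libraries of Sfrp1 are far apart.

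Of the 19 ligands 12 were tested. In LFAI at 35 h, Wnt5a and Wnt6 were called higher than in L2i and Wnt3, Wnt5b and Wnt7b lower. At 4 days, Wnt3, Wnt4 and Wnt9a were called higher and Wnt5b lower. In LIM, Wnt1, Wnt4, Wnt5a, Wnt6, Wnt9a, Wnt10b and Wnt16 were called higher and Wnt5b lower. Summed over all 19 ligands, the level per kb of exon was 2.35 and 2.24 CPM per kb at 35 h, 7.11 and 3.44 CPM per kb at 4 days and 8.70 and 4.87 CPM per kb in LIM, against 5.38 and 4.57 CPM per kb in L2i. The 35 h libraries had the lowest sums of the 8, while R1 libraries at 4 days and in LIM exceeded those of CGR8.

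Wnt5b, a ligand best known for beta-catenin-independent signalling, was at 1.04 and 1.36 CPM at 35 h, 1.26 and 1.24 CPM at 4 days and 0.814 and 0.832 CPM in LIM, against 5.42 and 7.64 CPM in L2i. It fell 5.39-fold at 35 h (log2 -2.43 ± 0.43, edgeR adjusted p = 0.0070), 5.19-fold at 4 days (log2 -2.38 ± 0.42, adjusted p = 0.0022) and 7.86-fold in LIM (log2 -2.97 ± 0.44, adjusted p = 0.0026). The L2i libraries stood above all 6 others. The 35 h call was lost without the R1 library of that group (log2 -2.25). Its paralog Wnt5a, which signals through Ror receptors in gastrulation and limb outgrowth, ran the other way in LIM. It was at 2.09 and 2.14 CPM at 35 h, 0.378 and 0 CPM at 4 days and 12.3 and 6.48 CPM in LIM, against 0 and 0.066 CPM in L2i. L2i held 1 Wnt5a count in both libraries together, which gives a ratio of 77.8 at 35 h (edgeR adjusted p = 0.012, with 13.5 to 3121 as its 95% counting interval) and of 342 in LIM (adjusted p = 0.0021, interval 61.0 to 13560). At 4 days Wnt5a was 47.2-fold lower than in LIM (log2 -5.56 ± 0.91, adjusted p = 0.0028) and 10.7-fold lower than at 35 h (log2 -3.42 ± 0.91, adjusted p = 0.019). The 35 h call was lost without the R1 L2i library (log2 4.85), and the fall from 35 h without the CGR8 library of either time (log2 -3.40 to -2.48). Wnt5a and Wnt7b overlap a gene on the other strand, and the strand setting of the counting is not given in the sources used here.

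Wnt1 and Wnt10b, both ligands of the beta-catenin branch, lie 11706 bp apart on chromosome 15 and were detected almost only in LIM. Wnt1 was at 0 and 0.065 CPM at 35 h, 0 and 0 CPM at 4 days and 4.82 and 1.01 CPM in LIM, against 0 and 0 CPM in L2i. Wnt10b was at 0 CPM in all 4 LFAI libraries, at 3.63 and 0.713 CPM in LIM and at 0 CPM in both L2i libraries. In both genes the R1 LIM library was above that of CGR8. Over a floor of 3 counts in both L2i libraries together, Wnt1 was at least 35.2-fold higher in LIM (edgeR adjusted p = 0.015) and Wnt10b at least 26.2-fold (adjusted p = 0.029). At 4 days of LFAI they were at least 29.8-fold (Wnt1, adjusted p = 0.012) and at least 22.2-fold (Wnt10b, adjusted p = 0.023) lower than in LIM. Wnt1 lost its call over L2i without the R1 library of L2i or of LIM (fitted log2 8.52 and 7.07), and that of 4 days over LIM without the R1 LIM library or either 4 day library (-8.60 to -7.07). Wnt10b lost its call over L2i without either L2i library (8.10 to 8.17) and that of 4 days over LIM without either 4 day library (-8.18 to -8.17). Without the R1 LIM library, which held 58 of its 70 LIM counts, Wnt10b did not pass the filter on low counts and both calls were lost, and the DESeq2 Wald test called neither (adjusted p = 0.27 and 0.24). With 0 counts on one side these fitted log2 values depend on the prior count of the fit. Wnt6, expressed in epithelia and extraembryonic endoderm, was at 1.17 and 2.21 CPM at 35 h, 0.252 and 0 CPM at 4 days and 1.32 and 1.37 CPM in LIM, against 0.184 and 0.066 CPM in L2i. It rose at 35 h (log2 3.60 ± 0.96, adjusted p = 0.038) and in LIM (log2 3.27 ± 0.96, adjusted p = 0.045). It was lower at 4 days than at 35 h (log2 -3.65 ± 0.99, adjusted p = 0.020) and than in LIM (log2 -3.32 ± 0.99, adjusted p = 0.035). The rises of Wnt6 over L2i were each lost without any 1 of the L2i, LIM or 35 h libraries (log2 3.09 to 4.53 at 35 h, 2.81 to 4.18 in LIM). Its lower values at 4 days were lost without the CGR8 library of 4 days or of 35 h, and against LIM also without either LIM library (log2 -3.13 to -2.73 against 35 h, -3.36 to -2.39 against LIM). Wnt16, a ligand known from bone and blood stem cells, was at 0 CPM in both 35 h libraries, 0.315 and 0.457 CPM at 4 days and 1.38 and 0.951 CPM in LIM, against 0.138 and 0.066 CPM in L2i. It was called higher in LIM than in L2i (log2 3.36 ± 0.82, adjusted p = 0.027). That call was lost without any 1 library of L2i, LIM or 4 days (log2 3.01 to 3.98) and in the DESeq2 Wald test (adjusted p = 0.089). At 4 days Wnt16 was at least 3.94-fold higher than at 35 h, where it had no count, and this was lost without any 1 of those 4 libraries (fitted log2 5.41 to 5.95).

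Wnt3, Wnt4 and Wnt9a were the ligands called higher than L2i at 4 days of LFAI. Wnt3, needed in the mouse embryo for the primitive streak, was at 0.065 and 0 CPM at 35 h, 4.34 and 2.88 CPM at 4 days and 0.563 and 0.713 CPM in LIM, against 1.24 and 0.465 CPM in L2i. The 35 h libraries held 1 count together, and both 4 day libraries were above all others. Wnt3 was 4.12-fold higher at 4 days than in L2i (log2 2.04 ± 0.65, edgeR adjusted p = 0.030) and 5.59-fold higher than in LIM (log2 2.48 ± 0.67, adjusted p = 0.024). L2i exceeded 35 h by a ratio of 28.4 (adjusted p = 0.023, with 4.76 to 1154 as its 95% counting interval), and 4 days exceeded 35 h by 111 (adjusted p = 0.0012, interval 19.6 to 4437). The last of these stayed without any 1 library. The call at 4 days over L2i was lost without the CGR8 L2i library or either 4 day library (log2 1.52 to 2.31), that over LIM without any 1 of its 4 libraries (2.16 to 2.74), and that at 35 h without the R1 L2i library or either 35 h library (-6.87 to -3.53). Wnt4, known from kidney and gonad development, was at 0 CPM in both 35 h libraries, 9.76 and 1.76 CPM at 4 days and 1.88 and 0.476 CPM in LIM, against 0 CPM in both L2i libraries. At 4 days it was at least 71.6-fold higher than in L2i (adjusted p = 0.0055) and at least 59.8-fold higher than at 35 h (adjusted p = 0.0083), and in LIM at least 14.2-fold higher than in L2i (adjusted p = 0.047). The LIM call was lost without either L2i library or the R1 LIM library (fitted log2 6.00 to 7.29). For 4 days over LIM no call was made (log2 2.29, adjusted p = 0.12). That difference was called with cell line as a blocking term (log2 2.17, adjusted p = 0.022) and with no filter on low counts (log2 2.27, adjusted p = 0.0043). Wnt9a, a ligand of the beta-catenin branch, was at 0.261 and 0.26 CPM at 35 h, 3.34 and 3.01 CPM at 4 days and 2.13 and 2.20 CPM in LIM, against 0.276 and 0.133 CPM in L2i. Wnt9a rose 14.5-fold at 4 days (log2 3.86 ± 0.57, adjusted p = 7.71e-04) and 9.89-fold in LIM (log2 3.31 ± 0.57, adjusted p = 0.0051), and was 11.9-fold higher at 4 days than at 35 h (log2 3.57 ± 0.56, adjusted p = 0.0016). These calls stayed without any 1 library. Wnt7b, which acts in lung and placenta development, was at 0.065 and 0.26 CPM at 35 h, 5.04 and 0.915 CPM at 4 days and 2.75 and 1.13 CPM in LIM, against 6.85 and 5.11 CPM in L2i. It fell 35.2-fold at 35 h (log2 -5.14 ± 1.01, adjusted p = 0.011) and was 17.6-fold higher at 4 days than at 35 h (log2 4.13 ± 1.01, adjusted p = 0.013). The first was lost without the R1 35 h library (log2 -4.48), and the second without the R1 library of either time (2.44 to 3.46).

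Among the Frizzled receptors, Fzd7 rose and Fzd10 fell against L2i in all 3 media. Fzd7, the receptor with a reported role in embryonic stem cell self-renewal, was at 207 and 165 CPM at 35 h, 220.1 and 267 CPM at 4 days and 86.1 and 110.1 CPM in LIM, against 18.1 and 19.8 CPM in L2i. The L2i, LIM and LFAI libraries did not overlap. Fzd7 rose 9.84-fold at 35 h (log2 3.30 ± 0.19, edgeR adjusted p = 1.28e-04), 12.9-fold at 4 days (log2 3.69 ± 0.20, adjusted p = 6.25e-06) and 5.18-fold in LIM (log2 2.37 ± 0.19, adjusted p = 2.13e-04), and was 2.48-fold higher at 4 days than in LIM (log2 1.31 ± 0.18, adjusted p = 0.0011). Fzd10 was at 16.2 and 36.6 CPM at 35 h, 4.85 and 4.51 CPM at 4 days and 15.4 and 14.9 CPM in LIM, against 60.0 and 81.3 CPM in L2i. It fell 2.68-fold at 35 h (log2 -1.42 ± 0.33, adjusted p = 0.024), 15.1-fold at 4 days (log2 -3.91 ± 0.38, adjusted p = 8.71e-05) and 4.66-fold in LIM (log2 -2.22 ± 0.34, adjusted p = 0.0033). At 4 days it was also 5.63-fold lower than at 35 h (log2 -2.49 ± 0.37, adjusted p = 0.0011) and 3.24-fold lower than in LIM (log2 -1.70 ± 0.36, adjusted p = 0.0095). The 35 h call was lost without either L2i library or the R1 35 h library (log2 -1.61 to -0.94), and 4 days over LIM without the CGR8 4 day library (-1.65). The calls of Fzd7 stayed without any 1 library.

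Fzd5, which with Fzd10 made up most Frizzled mRNA in L2i, fell late. It was at 113 and 162 CPM at 35 h, 34.3 and 34.9 CPM at 4 days and 121 and 118 CPM in LIM, against 121 and 153 CPM in L2i. At 4 days it was 3.95-fold lower than in L2i (log2 -1.98 ± 0.19, edgeR adjusted p = 8.94e-05), 3.98-fold lower than at 35 h (log2 -1.99 ± 0.19, adjusted p = 1.48e-04) and 3.45-fold lower than in LIM (log2 -1.79 ± 0.19, adjusted p = 3.67e-04), without a call at 35 h or in LIM. These calls stayed without any 1 library. Fzd2 was at 19.1 and 9.55 CPM at 35 h, 86.5 and 67.1 CPM at 4 days and 47.0 and 36.5 CPM in LIM, against 11.5 and 8.83 CPM in L2i. It rose 7.51-fold at 4 days (log2 2.91 ± 0.33, adjusted p = 1.93e-04) and 4.08-fold in LIM (log2 2.03 ± 0.32, adjusted p = 0.0036), and was 5.37-fold higher at 4 days than at 35 h (log2 2.43 ± 0.32, adjusted p = 6.68e-04). Its 4 day libraries were also above both LIM libraries, a difference that was not called (log2 0.88 ± 0.30, adjusted p = 0.059) except with cell line as a blocking term (log2 0.88, adjusted p = 0.0074) and in some of the other alternatives. Fzd1 was at 1.37 and 0.584 CPM at 35 h, 7.11 and 5.42 CPM at 4 days and 6.76 and 4.99 CPM in LIM, against 0.919 and 0.730 CPM in L2i. Fzd1 rose 7.49-fold at 4 days (log2 2.90 ± 0.49, adjusted p = 0.0016) and 7.02-fold in LIM (log2 2.81 ± 0.49, adjusted p = 0.0055), and was 6.38-fold higher at 4 days than at 35 h (log2 2.67 ± 0.49, adjusted p = 0.0034). The calls of Fzd1 and Fzd2 over L2i and over 35 h stayed without any 1 library.

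Fzd3 and Fzd6, receptors of planar cell polarity, were highest at 4 days. Fzd6 was at 7.70 and 4.03 CPM at 35 h, 21.7 and 19.8 CPM at 4 days and 8.08 and 6.96 CPM in LIM, against 7.95 and 4.98 CPM in L2i, so both 4 day libraries were above the 6 others. It rose 3.19-fold at 4 days over L2i (log2 1.68 ± 0.36, edgeR adjusted p = 0.0052) and was 3.54-fold higher than at 35 h (log2 1.82 ± 0.36, adjusted p = 0.0049) and 2.76-fold higher than in LIM (log2 1.47 ± 0.35, adjusted p = 0.016). The LIM difference was lost without any 1 of its 4 libraries (log2 1.36 to 1.56). Fzd3 was at 2.28 and 2.99 CPM at 35 h, 9.63 and 8.36 CPM at 4 days and 7.70 and 6.12 CPM in LIM, against 4.55 and 2.52 CPM in L2i. It was called higher at 4 days than in L2i (log2 1.34 ± 0.37, adjusted p = 0.018) and than at 35 h (log2 1.77 ± 0.38, adjusted p = 0.0075). The first was lost without the CGR8 L2i library or either 4 day library (0.97 to 1.43), and the second without the R1 35 h library (1.56). Fzd4, the receptor for Norrin, was at 7.37 and 7.08 CPM at 35 h, 13.5 and 8.04 CPM at 4 days and 2.25 and 4.99 CPM in LIM, against 8.41 and 8.43 CPM in L2i. It was 2.96-fold higher at 4 days than in LIM (log2 1.57 ± 0.41, adjusted p = 0.023), which was lost without the R1 library of either group (1.09 to 1.15). Fzd8, at 5.68 and 5.20 CPM at 35 h, 9.25 and 10.3 CPM at 4 days and 16.8 and 9.69 CPM in LIM, against 5.10 and 5.84 CPM in L2i, was called higher in LIM than in L2i (log2 1.27 ± 0.32, adjusted p = 0.024). That call was lost without either L2i library or the R1 LIM library (0.83 to 1.37). Fzd9 was at 1.70 and 1.43 CPM at 35 h, 1.89 and 0.849 CPM at 4 days and 1.50 and 2.85 CPM in LIM, against 6.76 and 3.45 CPM in L2i. Its fall at 4 days (log2 -1.90 ± 0.57, adjusted p = 0.025) was lost without the R1 L2i or the CGR8 4 day library (-1.44 to -1.34) and with the day 0 and LFAI day 4 time course libraries added (-1.05, adjusted p = 0.21).

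Per kb of exon, the make-up of Frizzled mRNA differed between the media. Fzd7 made up 59.3% and 47% of the summed CPM per kb of all 10 Frizzled genes at 35 h, 54% and 63.4% at 4 days and 30.7% and 38.8% in LIM, against 7.94% and 7.4% in L2i. Fzd10 made up 6.45% and 14.5% at 35 h, 1.66% and 1.49% at 4 days and 7.67% and 7.34% in LIM, against 36.7% and 42.4% in L2i. Fzd5 made up 21.2% and 30.2% at 35 h, 5.51% and 5.42% at 4 days and 28.4% and 27.2% in LIM, against 34.7% and 37.4% in L2i. Fzd7 thus had the highest level per kb in all 6 libraries with IWP2 and Fzd10 in both of L2i. The sum itself was 77.2 and 77.5 CPM per kb at 35 h, 90.0 and 93.1 CPM per kb at 4 days and 61.8 and 62.6 CPM per kb in LIM, against 50.3 and 59.0 CPM per kb in L2i.

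**Figure D4:**
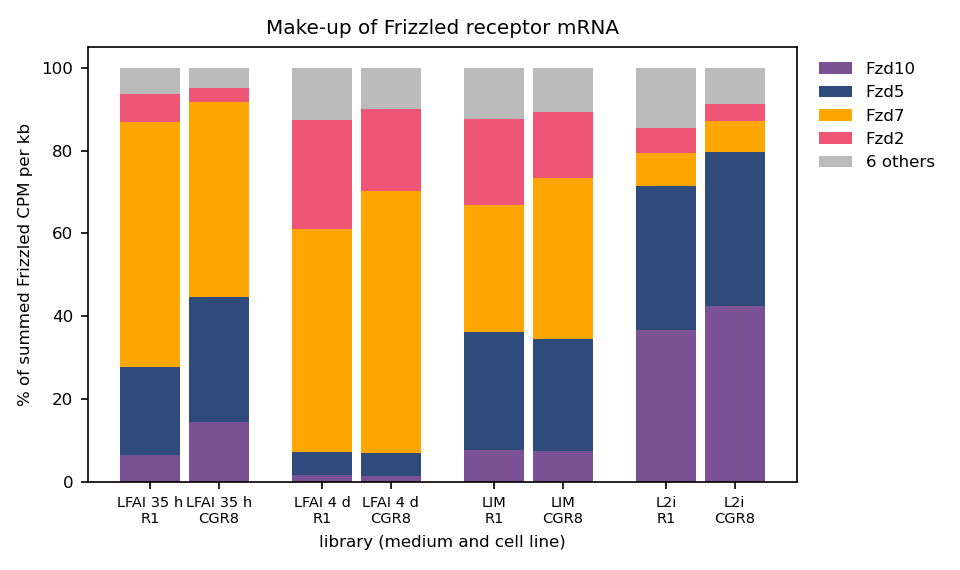
Share of each of 4 Frizzled genes, and of the 6 others together, in the summed Frizzled CPM per kb of exon (%) in the 8 libraries, by medium and line. Fzd7 takes 7.4 to 7.94% in L2i and 30.7 to 63.4% in the other media, where Fzd10 takes 1.49 to 14.5%.

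The receptor kinases Ror1 and Ror2, both of which bind Wnt5a, changed in opposite directions against L2i. Ror1 was at 5.61 and 5.78 CPM at 35 h, 8.31 and 8.49 CPM at 4 days and 69.3 and 39.4 CPM in LIM, against 3.59 and 3.98 CPM in L2i. Both LIM libraries were far above the 6 others. It rose 14.4-fold in LIM (log2 3.84 ± 0.30, edgeR adjusted p = 2.13e-04) and 2.22-fold at 4 days (log2 1.15 ± 0.29, adjusted p = 0.011), and was 6.46-fold lower at 4 days than in LIM (log2 -2.69 ± 0.28, adjusted p = 3.29e-04). Ror2 was at 4.50 and 5.65 CPM at 35 h, 4.53 and 1.96 CPM at 4 days and 10.8 and 11.0 CPM in LIM, against 51.2 and 49.3 CPM in L2i. It fell 9.89-fold at 35 h (log2 -3.31 ± 0.34, adjusted p = 6.89e-04), 15.4-fold at 4 days (log2 -3.95 ± 0.35, adjusted p = 5.92e-05) and 4.61-fold in LIM (log2 -2.21 ± 0.32, adjusted p = 0.0025), and was 3.34-fold lower at 4 days than in LIM (log2 -1.74 ± 0.34, adjusted p = 0.0064). The 4 day rise of Ror1 was lost without the R1 L2i library (log2 1.06), and the other calls of both genes stayed without any 1 library.

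Of the co-receptors of the beta-catenin branch, Lrp5 was called at 4 days and Lrp6 in no comparison. Lrp6 was at 85.7 and 102 CPM at 35 h, 110.8 and 94.4 CPM at 4 days and 105 and 102 CPM in LIM, against 88.2 and 100.5 CPM in L2i, with no call and log2 folds over L2i of -0.0053 ± 0.15, 0.12 ± 0.15 and 0.14 ± 0.15. Lrp5 was at 80.2 and 83.4 CPM at 35 h, 162.5 and 131 CPM at 4 days and 72.5 and 98.0 CPM in LIM, against 90.8 and 99.3 CPM in L2i. At 4 days it was 1.54-fold higher than in L2i (log2 0.63 ± 0.17, edgeR adjusted p = 0.017), 1.79-fold higher than at 35 h (log2 0.84 ± 0.17, adjusted p = 0.0060) and 1.72-fold higher than in LIM (log2 0.78 ± 0.17, adjusted p = 0.011). The first was lost without either L2i library or the R1 4 day library (log2 0.47 to 0.68) and with the time course libraries added (0.44, adjusted p = 0.061), and the last without the R1 library of LIM or 4 days (0.57 to 0.62). Ryk, a Wnt-binding receptor related to kinases, was at 61.9 and 64.0 CPM at 35 h, 115 and 116 CPM at 4 days and 81.2 and 90.0 CPM in LIM, against 83.5 and 91.8 CPM in L2i. At 4 days it was 1.84-fold higher than at 35 h (log2 0.88 ± 0.13, adjusted p = 9.44e-04), a call that stayed without any 1 library. Its smaller calls, 35 h over L2i (log2 -0.48), 4 days over L2i (0.40) and 4 days over LIM (0.43), were each lost in at least 5 fits that left out 1 library (-0.53 to -0.38, 0.32 to 0.46 and 0.35 to 0.51) and with no filter on low counts. For 35 h over L2i these were all libraries but the CGR8 LIM one. For 4 days over L2i they were the libraries of L2i and 4 days and the R1 35 h one, and for 4 days over LIM all but those of L2i.

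Of the R-spondins, which amplify Wnt signals, and their Lgr receptors, Rspo1 and Lgr4 were called. Lgr4 was at 183.5 and 207 CPM at 35 h, 157.5 and 154 CPM at 4 days and 103 and 121 CPM in LIM, against 59.5 and 49.5 CPM in L2i. All libraries with IWP2 were above both L2i libraries, and those of 35 h were the highest. Lgr4 rose 3.58-fold at 35 h (log2 1.84 ± 0.15, edgeR adjusted p = 3.07e-04), 2.86-fold at 4 days (log2 1.51 ± 0.15, adjusted p = 8.71e-05) and 2.06-fold in LIM (log2 1.04 ± 0.15, adjusted p = 0.0021). Its 1.39-fold higher level at 4 days than in LIM (log2 0.48 ± 0.14, adjusted p = 0.036) was lost without any 1 library of those groups or the R1 35 h library (0.35 to 0.59). Rspo1 was at 2.54 and 2.01 CPM at 35 h, 9.06 and 7.12 CPM at 4 days and 6.76 and 4.34 CPM in LIM, against 0.919 and 0.996 CPM in L2i. It rose 8.41-fold at 4 days (log2 3.07 ± 0.41, adjusted p = 4.44e-04) and 5.77-fold in LIM (log2 2.53 ± 0.41, adjusted p = 0.0037), and was 3.54-fold higher at 4 days than at 35 h (log2 1.83 ± 0.38, adjusted p = 0.0064). These calls stayed without any 1 library. Lgr5 and Lgr6 never exceeded 0.814 and 1.49 CPM in the 8 libraries.

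The secreted inhibitors did not move as a group. Sfrp1, a Wnt-binding antagonist, was at 29.5 and 95.9 CPM at 35 h, 17.9 and 20.0 CPM at 4 days and 107 and 94.5 CPM in LIM, against 107 and 105 CPM in L2i. At 35 h the lines were far apart, with R1 nearer the 4 day level and CGR8 nearer that of L2i. At 4 days Sfrp1 was 5.60-fold lower than in L2i (log2 -2.49 ± 0.44, edgeR adjusted p = 0.0022), 5.31-fold lower than in LIM (log2 -2.41 ± 0.44, adjusted p = 0.0048) and 3.31-fold lower than at 35 h (log2 -1.73 ± 0.43, adjusted p = 0.015). Dkk3, a divergent member of the Dickkopf family, was at 4.24 and 7.79 CPM at 35 h, 0.692 and 0.261 CPM at 4 days and 4.70 and 8.38 CPM in LIM, against 3.82 and 7.30 CPM in L2i. It was 11.4-fold lower at 4 days than in L2i (log2 -3.51 ± 0.64, adjusted p = 0.0023), 12.4-fold lower than at 35 h (log2 -3.63 ± 0.64, adjusted p = 0.0027) and 13.5-fold lower than in LIM (log2 -3.75 ± 0.64, adjusted p = 0.0034). The call of Sfrp1 at 4 days over 35 h was lost without either 4 day library (log2 -1.82 to -1.64), and the other calls of Sfrp1 and those of Dkk3 stayed without any 1 library.

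Sfrp2 and Sfrp4, of the same family of secreted Frizzled-related proteins, ran the other way. Sfrp2 was at 8.74 and 18.2 CPM at 35 h, 31.5 and 59.9 CPM at 4 days and 21.1 and 32.6 CPM in LIM, against 2.94 and 6.64 CPM in L2i. In every medium the CGR8 library was above that of R1. Sfrp2 rose 9.67-fold at 4 days (log2 3.27 ± 0.52, edgeR adjusted p = 0.0012) and 5.69-fold in LIM (log2 2.51 ± 0.51, adjusted p = 0.010), and was 3.39-fold higher at 4 days than at 35 h (log2 1.76 ± 0.48, adjusted p = 0.021). With cell line as a blocking term it was also called higher at 35 h than in L2i (log2 1.51, adjusted p = 0.0015) and at 4 days than in LIM (log2 0.72, adjusted p = 0.019). The edgeR fit with no filter on low counts made both calls too (log2 1.515, adjusted p = 3.62e-05, and log2 0.733, adjusted p = 0.0443). The DESeq2 Wald test made the one at 35 h (log2 1.51, adjusted p = 0.0104). The LIM call was lost without the R1 L2i library (log2 2.02), and that of 4 days over 35 h without the R1 35 h or the CGR8 4 day library (1.21 to 1.29). Sfrp2 and Fzd6 overlap a gene on the other strand, as do Fzd5 and Kremen2. Sfrp4 was at 12.1 and 9.42 CPM at 35 h, 5.79 and 5.88 CPM at 4 days and 4.51 and 8.20 CPM in LIM, against 2.53 and 1.79 CPM in L2i. It rose 4.94-fold at 35 h (log2 2.31 ± 0.39, adjusted p = 0.0060), 2.68-fold at 4 days (log2 1.42 ± 0.38, adjusted p = 0.016) and 2.92-fold in LIM (log2 1.55 ± 0.38, adjusted p = 0.024). The 4 day call was lost without the CGR8 L2i library or either 4 day library (1.19 to 1.44), and the LIM call without either L2i library or the CGR8 LIM library (1.05 to 1.83). Sfrp5 was at 0.065 and 1.17 CPM at 35 h, 0.315 and 0.261 CPM at 4 days and 2.19 and 3.51 CPM in LIM, against 0.873 and 1.06 CPM in L2i. It was 9.66-fold lower at 4 days than in LIM (log2 -3.27 ± 0.96, adjusted p = 0.032), which was lost without any 1 of those 4 libraries (-3.59 to -2.89). Frzb, another secreted antagonist, was at 0 and 0.065 CPM at 35 h, 0.252 and 0.327 CPM at 4 days and 1.94 and 0.654 CPM in LIM, against 0.138 and 0.332 CPM in L2i, with no call. Kremen1, a receptor for Dickkopf proteins, was at 20.4 and 24.4 CPM at 35 h, 35.0 and 19.3 CPM at 4 days and 30.7 and 33.7 CPM in LIM, against 21.9 and 22.5 CPM in L2i, with no call in any of the 5 comparisons. Its relative Kremen2 lay between 0.735 and 1.43 CPM in all 8 libraries, also without a call.

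A list of 58 other genes of the pathway, inside and outside the cell, was read beside these, of which 55 were tested. Of them, 7 were called higher and 6 lower than L2i at 35 h, 19 and 16 at 4 days, and 13 and 7 in LIM. These are 23.6%, 63.6% and 36.4% in either direction, against 14.5%, 44.8% and 19.1% of all tested genes. At 4 days, 8 were called higher and 11 lower than in LIM, and 16 higher and 9 lower than at 35 h. These are 34.5% and 45.5%, against 29.5% and 36.8% of all tested genes, so the share against LIM was near that of all genes. Axin2, a feedback inhibitor and common readout of beta-catenin activity, was at 22.7 and 25.3 CPM at 35 h, 5.54 and 4.51 CPM at 4 days and 15.8 and 17.8 CPM in LIM, against 99.3 and 151 CPM in L2i. It was 5.21-fold lower at 35 h (edgeR adjusted p = 4.80e-04), 24.8-fold lower at 4 days (adjusted p = 6.95e-06) and 7.43-fold lower in LIM (adjusted p = 2.13e-04). Notum, a secreted enzyme that removes the lipid from Wnt proteins, was at 163 and 166 CPM at 35 h, 1.39 and 0.784 CPM at 4 days and 62.7 and 61.6 CPM in LIM, against 137 and 147.5 CPM in L2i. Notum thus stayed near its L2i level at 35 h (log2 0.21 ± 0.15, adjusted p = 0.41) and was 129.7-fold lower at 4 days (log2 -7.02 ± 0.22, adjusted p = 1.00e-06) and 2.29-fold lower in LIM (log2 -1.19 ± 0.16, adjusted p = 0.0016). Lef1, a DNA-binding partner of beta-catenin, was at 78.9 and 37.9 CPM at 35 h, 63.2 and 57.7 CPM at 4 days and 32.3 and 75.5 CPM in LIM, against 8.09 and 9.03 CPM in L2i, and was called higher in each (log2 2.77 ± 0.44, 2.82 ± 0.44 and 2.66 ± 0.44).

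In the time course, 41 of the 55 genes reached 1 CPM in at least 1 library. At day 4 of LFAI, 16 of them were at least 2-fold higher and 9 at least 2-fold lower than at day 0 (log2 CPM with a prior count of 2), against 16.3% and 13.4% of all 15682 genes. On days 2 and 3 of LFAI, 10 and 13 were higher and 11 and 11 lower, against 10.6% and 14.4% of all genes higher and 10.8% and 13% lower. On days 1 to 4 of LIM, 5, 9, 8 and 12 were higher, against 5.34%, 6.73%, 7.28% and 8.17% of all genes. In the same order, 9, 11, 8 and 8 were lower, against 4.47%, 5.04%, 7.15% and 7.22%. In the library labelled LFAI day 1, 7 were higher and 9 lower, against 4.65% and 3.88%. With 1 library per point no test was possible, and intervals cover counting error only. Levels of the time course and of the libraries of both lines were scaled separately.

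Porcn was at 14.8 CPM on day 0, 5.39, 5.41, 6.73 and 7.41 CPM on days 1 to 4 of LIM, and 29.5, 4.62 and 4.29 CPM on days 2 to 4 of LFAI, with 5.94 CPM in the library labelled LFAI day 1. All but 1 of the libraries with IWP2 were below day 0. The exception was LFAI day 2, with 382 counts (95% counting interval 26.6 to 32.6 CPM against 12.9 to 17.0 CPM at day 0), while both 35 h LFAI libraries of the other set were near 4.4 CPM. Wls was at 29.8 CPM on day 0, 25.2, 21.6, 16.3 and 15.4 CPM on days 1 to 4 of LIM, and 8.19, 11.0 and 16.7 CPM on days 2 to 4 of LFAI (23.5 CPM in the library labelled LFAI day 1). It was lowest on LFAI day 2 and higher on each later day. In LIM, the R1 level after several passages (64.8 CPM) was thus on the other side of its L2i level from that on day 4.

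Wnt3 was at 0.804 CPM on day 0, 0.154, 5.99 and 8.87 CPM on days 2 to 4 of LFAI and 0.150 to 0.317 CPM on days 1 to 4 of LIM. Its low point and later high level in LFAI were the order seen between 35 h and 4 days in both lines. Wnt8a, a ligand of the early primitive streak, was at 0.365 CPM on day 0, 2.86, 8.01 and 10.5 CPM on days 2 to 4 of LFAI and no more than 0.227 CPM in LIM. In the other set it was at 0.252 and 0.065 CPM at 4 days of LFAI, so the sets differed for this gene. They also differed for Fzd9 and Wnt6. Fzd9 rose from 3.508 CPM on day 0 to between 6.499 and 8.317 CPM in LIM. On days 2 to 4 of LFAI it was at 5.177 to 6.351 CPM. In the libraries of both lines Fzd9 was below L2i in every medium. Wnt6 was at 1.096 CPM on day 0 and 0.4506 to 1.347 CPM in LIM. On days 2 to 4 of LFAI it was at 0.5723 to 0.866 CPM. The rises of Wnt6 called at 35 h and in LIM were thus not seen here, on 6 to 17 counts per library. Wnt5a was at 0.219 CPM on day 0, 0.554, 1.58, 3.21 and 4.31 CPM on days 1 to 4 of LIM and 1.00, 0.288 and 0.143 CPM on days 2 to 4 of LFAI. Ror1 was at 1.68 CPM on day 0, 5.70, 8.71, 13.6 and 17.9 CPM on days 1 to 4 of LIM and 1.16, 1.80 and 5.80 CPM on days 2 to 4 of LFAI (6.45 CPM in the library labelled LFAI day 1). Both Wnt5a and Ror1 were higher on each day of LIM than on the one before. Wnt11 and Wnt3a were highest on day 0, at 4.90 and 3.65 CPM, and were at or below 1.03 and 0.68 CPM in all later libraries. In the libraries of both lines Wnt11, with a role in convergent extension, was at no more than 0.849 CPM and had no call. Wnt1 and Wnt10b had at most 1 count in any LIM library of the time course, whereas both were detected in the LIM libraries of 4 and 6 passages.

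Fzd7 was at 29.2 CPM on day 0, 212, 187 and 164 CPM on days 2 to 4 of LFAI and 31.1, 40.4, 40.7 and 45.5 CPM on days 1 to 4 of LIM. The library labelled LFAI day 1 held 29.2 CPM. Fzd10 was at 85.2 CPM on day 0, 9.43, 16.7 and 20.9 CPM on days 2 to 4 of LFAI and 49.9, 42.1, 36.5 and 34.8 CPM on days 1 to 4 of LIM. Ror2 was at 56.6 CPM on day 0, 18.3, 13.8 and 10.1 CPM on days 2 to 4 of LFAI and 26.6, 23.1, 16.7 and 15.0 CPM on days 1 to 4 of LIM. Both were below the day 0 level in every later library. Sfrp1 was at 125.8 CPM on day 0, 20.3, 16.0 and 30.4 CPM on days 2 to 4 of LFAI and 172, 188, 163 and 137 CPM on days 1 to 4 of LIM, with 187 CPM in the library labelled LFAI day 1. Of the 41 genes, 3 differed at least 2-fold in their log2 fold over day 0 between that library and LIM day 1, and 16 between it and LFAI day 2. The 3 were Rspo2, Wnt6 and Wnt9a, each at no more than 1.76 CPM in that library and LIM day 1. The share of all genes on this measure was not computed, and the shares given earlier used log2 CPM without TMM factors.

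**Figure D5:**
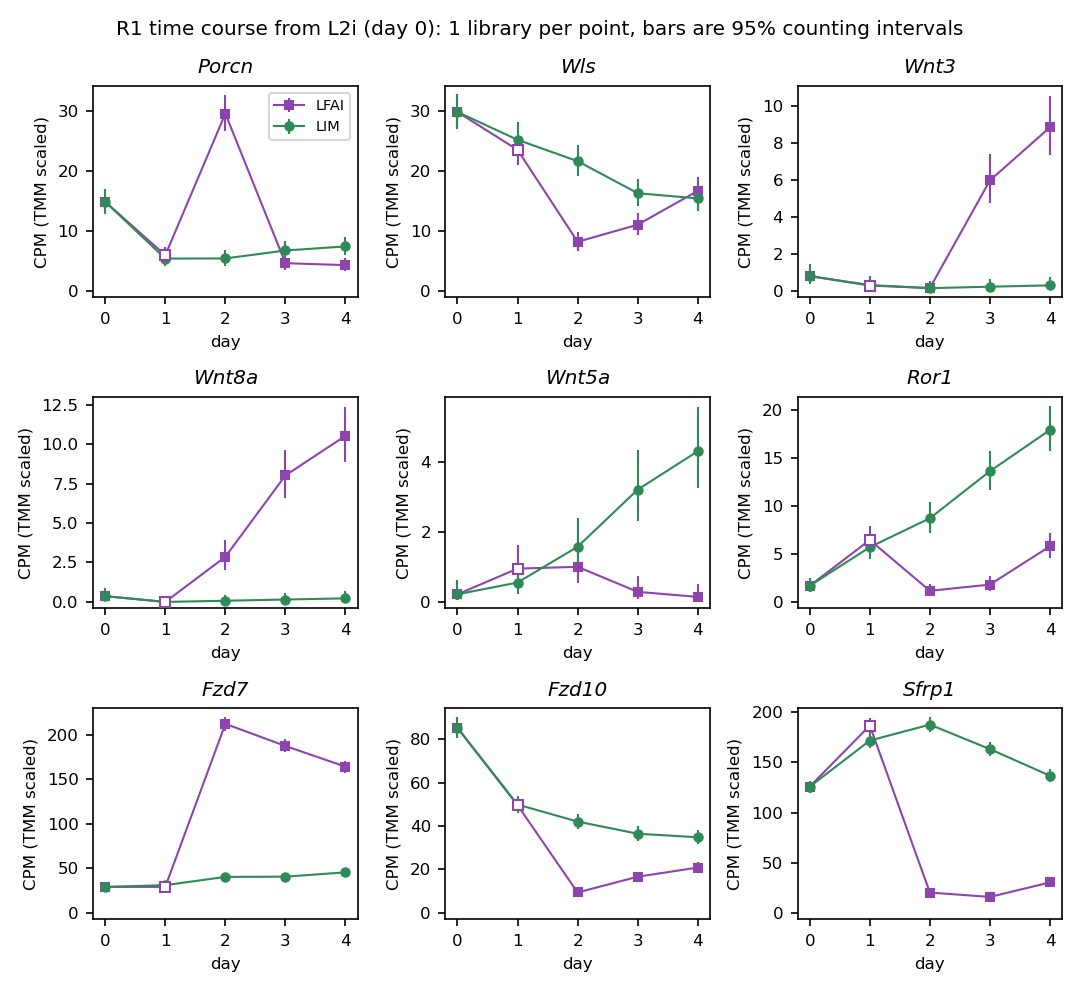
CPM of 9 genes by day after the switch from L2i (day 0) to LFAI (purple squares) or LIM (green circles) in R1, 1 library per point, with 95% counting intervals; the open square is the library labelled LFAI day 1. Porcn peaks at 29.5 CPM on LFAI day 2 alone, Wnt3 and Wnt8a are high on LFAI days 3 and 4, and Wnt5a and Ror1 are highest on LIM day 4.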

How the data were processed

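The deposited values are raw counts of reads per Ensembl gene in 17 libraries. Per the submitters' processing notes the authors' tools were HISAT2 2.0.4, HTSeq 0.6.1 and DESeq2 1.10.1, with GRCm38 (mm10). Per the labels' protocols the kit was stranded and selected mRNA. The strand setting and annotation release of the counting are not given in the sources used here. Of 47729 genes, 47310 matched GENCODE M21. The 5 summary entries that name no gene were left out, and reads assigned to no gene were 47.7 to 51.9% of each library, mostly reads aligned to several places. No libraries were identical.

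The 8 libraries of both lines were fitted together with edgeR 4.0.16 (R 4.3.3): filterByExpr (15525 genes), TMM, quasi-likelihood test of group means, 4 residual degrees of freedom, two-sided, Benjamini-Hochberg adjustment over all tested genes. The fit was tested on simulated data. The lines serve as replicates, and R1 and CGR8 libraries pair the groups by line. Line differences correlated between groups at 0.041 to 0.4, and a fit with the line as a block was an alternative. Folds against groups with 0 counts are bounds over 3 counts in both libraries together, and those on 1 to 3 counts are ratios with 95% intervals for counting error only. CPM per kb uses GENCODE M21 exon lengths. Time course libraries were scaled apart, with log2 CPM at a prior count of 2. Other alternatives were DESeq2 size factors, no filter, the DESeq2 1.42.0 Wald test, the libraries of a comparison alone, the time course libraries added, and each library left out.

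Genes called in any comparison or at a group mean of 10 CPM (35 genes) are given by library. The rule for the 55 genes used names only, but it and the lists were chosen with earlier results of these data known. Promoters are from RefSeq (GRCm38.p6); no promoter was used for Dkk3, Dkk4, Fzd2, Fzd3, Fzd6, Fzd8, Kremen1, Lgr5, Lrp5, Lrp6, Porcn, Rspo2, Rspo3, Sfrp1, Sfrp4, Wnt10a, Wnt5a, Wnt7b and Wnt8a.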

Additional observations from a re-analysis of the deposited data

Results flagged for a closer look

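The lines went in opposite directions, by at least 2-fold each, for 2 genes. For Wls, LFAI at 4 days against LIM gave a log2 difference of -1.104 in R1 and 1.166 in CGR8. For Sfrp5, LFAI at 4 days against 35 h gave a log2 difference of 1.327 in R1 and -1.812 in CGR8, on levels of at most 1.17 CPM. With 1 library per line and medium, neither difference between the lines was tested.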

How the results depend on the processing

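Counts of called genes moved by more than 1.5 times as follows. With no filter on low counts, 11 genes were called lower at 35 h than in L2i, where 7 were called with it. Leaving out 1 library at a time, the number higher in LIM than in L2i ranged from 8 to 15 (8 without R1 L2i, 10 without CGR8 L2i or R1 LIM). At 35 h it ranged from 3 to 5 higher (3 without R1 L2i) and from 2 to 8 lower than L2i (4 without R1 L2i, 2 without R1 35 h). For 4 days over LIM it ranged from 1 to 7 higher (1 without R1 LIM or R1 4 days, 3 without CGR8 LIM or CGR8 4 days) and from 7 to 12 lower (7 without CGR8 4 days). For 4 days over 35 h it ranged from 4 to 7 lower (4 without CGR8 4 days). A lone library left in a group is assumed to vary like the others. The cause of these differences was not tested. The other counts, those of the time course included, kept within 1.5 times under every alternative run. With the cell line as a replicate block, paired by line, 10 genes were higher at 4 days than in LIM (7 without it). It added the calls of Wls, Sfrp2, Fzd2 and Wnt4 given in the report, lost none and changed no other call of the genes described. Over single genes, 2108 of 2289 alternative values kept direction and side of the threshold, 137 lost and 44 gained a call, and none that was called changed sign. On the 4 libraries of a comparison alone, calls lost were those of Fzd10 (35 h) and of Fzd8 and Sfrp4 (LIM) over L2i, of Fzd4 and Lgr4 (4 days over LIM), and the smaller ones of Ryk, with adjusted p of 0.051 (Fzd4) to 0.0723 (Sfrp4). There, Wnt4 (LIM) and Wnt3 (35 h) over L2i and Wnt16 (4 days over 35 h) did not pass the filter on low counts, so these calls were lost too. With 2 libraries per group and ligands at a few CPM, small changes of low genes were not detectable.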
